A study of Mus musculus with 6 samples.

Results

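ATF3 binding in unstimulated bone marrow-derived macrophages was examined at every peak of the standard list (2779 peaks) and of the KOIN-corrected list (595 peaks), 3374 of the 16759 peaks in the 6 peak lists of the series. In the standard method, peaks were called on the wild-type (WT) chromatin alone. In the KOIN method (knockout implemented normalization), the same precipitation from Atf3 knockout (KO) macrophages served as the control, and a peak also had to hold at least 2-fold more WT than KO tags. For each peak, WT and KO tags, the nearest start site, the annotation and the distance to that start site were read from the lists.

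Both genotypes, Atf3 +/+ and Atf3 -/-, were on the C57BL/6 background. Marrow from mice of 6 to 8 weeks was cultured with M-CSF at 40 ng/ml, and the cells of both unstimulated groups then received medium alone, with no lipoprotein and no Toll-like receptor ligand. For the precipitation 2.5 µg of rabbit polyclonal antibody against ATF3 was used, and fragments of 150 to 250 bp were sequenced. The authors joined the reads of 3 biological replicates per genotype, so that 1 WT library and 1 KO library were compared and no spread between animals can be given. How the knockout allele was made is not given in the sources used here. ChIP-seq peaks do not measure expression, so the cell type could not be checked against its marker genes in these files.

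ATF3, of the basic leucine zipper (bZIP) family of transcription factors, is a protein that stressed cells and macrophages make in response to many stimuli. It binds DNA as a dimer with JUN or other bZIP partners at AP-1 and CRE sites, and with C/EBP partners at composite sites, which stand in genes of the amino acid response and are also bound by ATF4. In macrophages it is known for restraining the transcription of cytokine genes. Reads that an ATF3 antibody precipitates from cells without ATF3 measure what the procedure yields in the absence of its target.

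The sequences below are examples, chosen because they hold the letters. The first set, all in KOIN-corrected peaks, holds the AP-1 letters TGAGTCA (capitals) within 100 bp of the peak centre. Each is read 5′ to 3′ from the mouse reference genome of build NCBIM37 (mm9), on the strand that carries the letters. Vim, Lmna, Nfkbie and Creb5 are promoter sites, and the other 3 are intergenic. Removed peaks are not shown in this set, though 113 of the 260 standard peaks with these letters overlapped no KOIN-corrected peak. The Wdr67 peak also holds the composite letters given below, and the Vim stretch holds a further, unmarked match on the other strand.
Wdr67, chr15:57738253-57738309, minus strand: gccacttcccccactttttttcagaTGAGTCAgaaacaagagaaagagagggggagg
Gm20125, chr10:17067699-17067755, plus strand: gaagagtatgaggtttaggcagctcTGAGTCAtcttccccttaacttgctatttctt
Glrx, chr13:75935341-75935397, plus strand: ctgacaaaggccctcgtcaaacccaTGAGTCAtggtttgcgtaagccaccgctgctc
Creb5, chr6:53523298-53523354, minus strand: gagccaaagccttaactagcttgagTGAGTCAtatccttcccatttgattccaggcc
Vim, chr2:13495210-13495266, plus strand: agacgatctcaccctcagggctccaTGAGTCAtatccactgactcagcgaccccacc
Lmna, chr3:88307624-88307680, plus strand: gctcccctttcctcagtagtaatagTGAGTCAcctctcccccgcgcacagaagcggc
Nfkbie, chr17:45692468-45692524, plus strand: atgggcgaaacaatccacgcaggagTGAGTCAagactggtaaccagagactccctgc

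The second set holds the C/EBP-ATF composite letters TGATGCAA (capitals), also called the amino acid response element. It shows the same letters in peaks that KOIN retained (the first 3) and in peaks that it removed (the last 5). The Slc38a2 site is intergenic, the Mars site lies in the annotated 5′ untranslated region, and the others are at promoters. Only 30 bases are given where the stretch touches an annotated exon.
Iars, chr13:49777495-49777524, minus strand: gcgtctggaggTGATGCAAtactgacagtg
Yars, chr4:128867139-128867168, plus strand: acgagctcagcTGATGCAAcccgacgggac
Slc38a2, chr15:96573815-96573872, minus strand: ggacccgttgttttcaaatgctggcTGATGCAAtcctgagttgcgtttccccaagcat
Atf3, chr1:193007134-193007163, minus strand: tttaaaaggggTGATGCAAcgcgctcccag
Ddit3, chr10:126727523-126727580, minus strand: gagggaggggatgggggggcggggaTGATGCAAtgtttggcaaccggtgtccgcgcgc
Ppp1r15b, chr1:135027658-135027715, plus strand: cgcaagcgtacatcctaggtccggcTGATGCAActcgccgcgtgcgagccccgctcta
Pycr1, chr11:120505133-120505190, minus strand: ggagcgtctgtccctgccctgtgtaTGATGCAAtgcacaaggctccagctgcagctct
Mars, chr10:126748694-126748723, plus strand: ggagcccacgcTGATGCAAtcggaaccggc

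Most standard peaks held more WT than KO tags, by a modest margin. Tags are reads scaled by the authors to a common library of 10000000 reads, so WT/KO is a ratio of read densities. The median WT/KO over the 2779 standard peaks was 1.66, with quartiles of 1.22 and 2.17, and 307 peaks were below 1. WT reads exceeded the share set by the library totals at 1562 peaks (56.2%), and KO reads did at 25 peaks (0.900%), by the exact binomial test with Benjamini-Hochberg adjusted p under 0.05 over all standard peaks. A WT/KO of 2 or more was found at 869 peaks (31.3%). This test compares the 2 pooled libraries and covers counting error only. It does not allow for the choice of peaks on the WT library, which required each site to be high there.

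The library totals were 37137377 reads for WT and 75534584 for KO, a KO/WT depth of 2.03, and 1 read was worth 0.269 tags in WT and 0.132 in KO. The split between the genotypes depended on the scaling and on the peaks it was taken from. KO tags were also scaled so that the median WT/KO of the 910 peaks on satellites, simple repeats, low-complexity sequence and rRNA elements was 1. This, named KO scaled on repeats here, lowered every WT/KO 1.63-fold, or 0.70 on the log2 scale. Of the 910 peaks, 790 were on simple repeats and 111 overlapped a KOIN-corrected peak. Their median, 1.63, was near the 1.66 of all standard peaks, so a median near 1 afterwards follows from the set. The 26 satellite peaks alone had a median of 1.11. With KO scaled on repeats the median of all standard peaks was 1.02. Then 305 peaks (11.0%) were called for more WT reads and 430 (15.5%) for more KO reads. The share called and the smallest ratio called also differed with depth. Among the 1213 peaks with fewer than 40 WT reads, 47.7% were called and the smallest WT/KO called was 1.64. The share was 66.1% at 40 to 60 WT reads and 61.9% at 60 to 100, where the smallest ratios called were 1.49 and 1.37. Among the 462 peaks with 100 or more WT reads 58.2% were called and the smallest was 1.08.

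A KOIN-corrected peak overlapped 574 standard peaks (20.7%, Wilson 95% interval 19.2 to 22.2), which are named kept peaks here, and the other 2205 are named removed peaks. Since the KOIN filter used these 2 libraries, the WT/KO of kept peaks is a description. Its median was 2.95 (quartiles 2.39 and 3.70), against 1.49 (1.14 and 1.80) for removed peaks. Removed peaks were not all alike in the test, since 989 of them were called for more WT reads and 697 of those were under 2-fold. The KOIN-corrected list also held 21 peaks with no standard counterpart, with a median WT/KO of 3.43. Scaled on repeats, 267 kept and 38 removed peaks were still called for more WT reads.

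**Figure D1:**
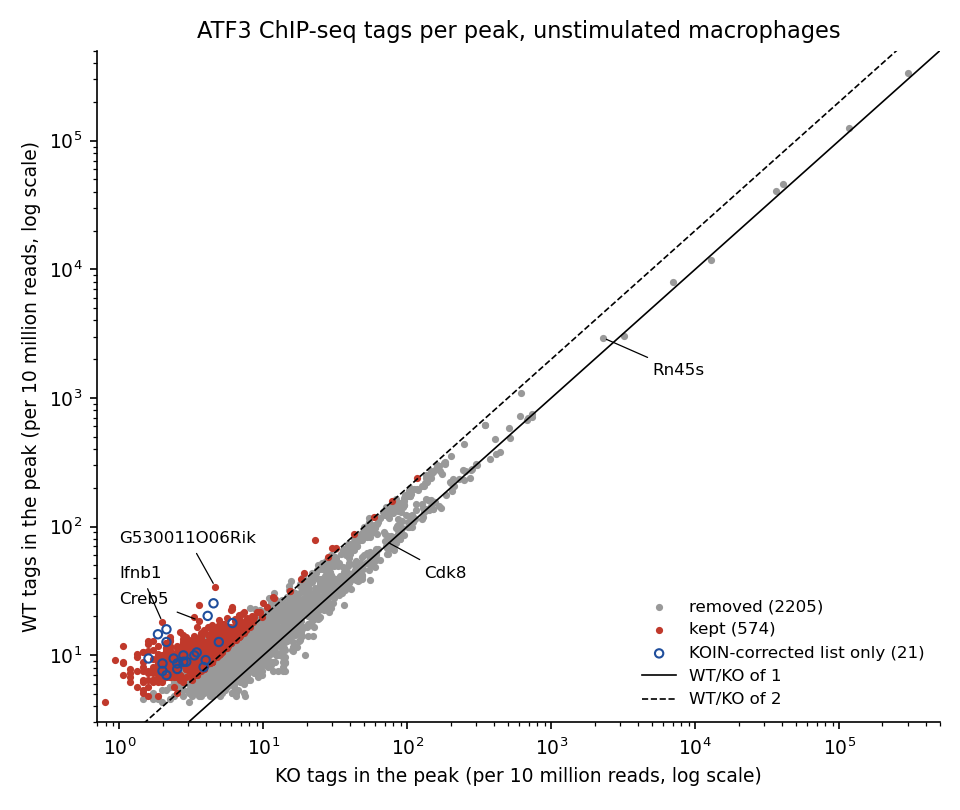
KO tags (horizontal) against WT tags (vertical) in each peak of unstimulated macrophages, both scaled to the common library on log axes, for 2205 removed peaks, 574 kept peaks and 21 peaks of the KOIN-corrected list alone. Kept peaks lie above the dashed line of WT/KO 2, and the peaks with the most tags, Rn45s among those named, lie near the solid line of 1.

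The KOIN-corrected site of highest MACS score off satellites, simple repeats, low-complexity and rRNA elements was the promoter of G530011O06Rik, a non-coding RNA gene, on chromosome X (166416204 to 166417587). It held 126 WT reads (33.9 tags) and 35 KO reads (4.63 tags), a WT/KO of 7.32 (exact 95% interval 5.0 to 11.0). This site was the fourth in the densest run of KOIN-corrected peaks, 5 within 12164 bp, where the other 11 runs with gaps under 20 kb were pairs. The other 4 held 59 WT and 16 KO reads, 94 and 34, 47 and 16, and 75 and 31, so that WT/KO ranged from 4.92 to 7.50 over the run. All 5 stood above 4-fold, and 4 of them had no standard counterpart. The run overlaps Mid1, a ubiquitin ligase gene that in the mouse reaches the pseudoautosomal region, since 2 of its peaks were annotated to introns 3 and 4 of 9 of the Mid1 transcript. Only 8 KOIN-corrected peaks were on chromosome X, and these were 5 of them.

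Ifnb1, which encodes interferon beta, had a kept peak 14.7 kb upstream (chromosome 4, 88182925 to 88183823). It held 67 WT and 15 KO reads, a WT/KO of 9.08 (5.14 to 17.1). The peak 252 kb upstream of Gm20125, a gene model, held 91 and 27 reads, a WT/KO of 6.86 (4.42 to 11.0), and Gm20125 was the nearest start site only at that distance. Spsb2, an adaptor of a ubiquitin ligase that acts on inducible nitric oxide synthase, had 73 and 25 reads in a peak 3.34 kb upstream, a WT/KO of 5.94 (3.73 to 9.76). These 3 sites had intervals wholly above 3.

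The other sites of highest score were lower and had intervals that overlapped each other. Wdr67 had 61 WT and 26 KO reads in a peak 5.44 kb upstream, a WT/KO of 4.77 (2.97 to 7.87). Glrx, the glutaredoxin gene, had 61 and 31 reads 42.0 kb upstream, at 4.00 (2.56 to 6.38). Sergef (3.85), Prss56, a serine protease (3.57), Nucb2, the nesfatin precursor (3.52), Cdkn1a, the p21 cyclin kinase inhibitor (3.51), Jazf1, a zinc finger gene (3.50), B930025P03Rik (3.37), Btbd19 (3.28) and 4930479D17Rik (2.86) completed the 15 sites of highest score. Of the 15, Spsb2 alone had no peak in either other condition, and 6 held the AP-1 letters, at Wdr67, 4930479D17Rik, Gm20125, Jazf1, Glrx and Prss56. Wdr67 and Prss56 also held the composite letters. The highest WT/KO values of all standard peaks rested on few KO reads. They were chosen after their values were seen. Igfbp3, which encodes an insulin-like growth factor binding protein, had 21 WT and 3 KO reads (14.2, interval 4.25 to 74.5). An intron peak nearest to Bhlha15, a transcription factor gene, had 26 and 4 (13.2, interval 4.59 to 52.1). Pnldc1, a nuclease of piRNA trimming, had 44 and 8 at its promoter (11.2, interval 5.21 to 27.5).

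Promoter peaks had a higher median WT/KO than intron and intergenic peaks, though the interval of their 2-fold share overlapped that of introns. Of 86 standard peaks annotated to a promoter, 72 were called for more WT reads, 45 (52.3%, 41.9 to 62.6) reached 2-fold and 41 were kept. Their median WT/KO was 2.06, against 1.79 in introns, where 350 of 883 peaks (39.6%, 36.5 to 42.9) reached 2-fold, and 1.58 in intergenic sequence, where 456 of 1763 did (25.9%). Kept peaks were 47.7% at promoters and 27.3% in introns. Off satellites, simple repeats, low-complexity and rRNA elements these shares were 47.7% and 34.7%. The share kept was lower farther from the start site, from 47.2% of 106 peaks within 1 kb to 27.3% of 410 at 1 to 10 kb, 22.3% of 1296 at 10 to 100 kb and 12.7% of 967 farther away. No peak within 1 kb was called for more KO reads, but only 25 of all 2779 standard peaks (0.900%) were, so this does not set these peaks apart.

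The KOIN-corrected list held 43 promoter peaks. Creb5, itself a bZIP factor gene, had 69 WT reads (18.6 tags) and 27 KO reads (3.57 tags) in a peak 26 bp from its start site, a WT/KO of 5.20 (3.29 to 8.44). Rpp38, a subunit of ribonuclease P, had 52 and 25 reads (4.23, interval 2.58 to 7.11). 9430076C15Rik had 52 and 28 reads, with the CRE letters TGACGTCA near the centre (3.78, interval 2.34 to 6.21). The intervals of the 3 sites overlapped. Fgd3, an exchange factor for the GTPase Cdc42, had 54 and 32 reads (3.43), and a further kept peak in its intron with 44 and 17 (5.26). Lmna, which encodes lamins A and C, had 48 and 31 reads at its promoter (3.15) and 37 and 25 in an intron (3.01). Stk40 (62 and 44 reads, 2.87), Cep120, a centriole gene (54 and 40, 2.75), 9930111J21Rik2 (53 and 43, 2.51), Slc16a14, of the monocarboxylate transporter family (54 and 44, 2.50), and Hist1h4h, a histone H4 gene (71 and 64, 2.26), had lower ratios. Of all 43, 29 were still called for more WT reads with KO scaled on repeats.

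Promoter peaks with AP-1 letters had higher WT/KO than those with the composite letters, with medians of 3.87 and 1.78. Over all standard peaks the medians were closer, 2.42 for 260 peaks with AP-1 letters and 2.14 for 63 with the composite. The Ddit3 promoter holds both sets of letters and, at 1.48, had the lowest ratio of the promoters with AP-1 letters. The genes of this and the next paragraph outside the naming rule were chosen after their values were seen, because they hold the letters. Vim, the intermediate filament vimentin, had 47 WT and 21 KO reads (4.55, interval 2.67 to 8.02). Nfkbie, an inhibitor of NF-κB, had 35 and 17 (4.19, interval 2.28 to 7.97), and Srxn1, the antioxidant enzyme sulfiredoxin, 30 and 16 (3.81, interval 2.01 to 7.49). Over the 12 standard promoter peaks with AP-1 letters WT/KO ranged from 1.48 to 5.20, 10 were kept and 11 were called for more WT reads.

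Of the 13 promoters with the composite, 3 were those of aminoacyl-tRNA synthetases, enzymes that charge tRNAs with their amino acids. Aars had 60 WT and 47 KO reads (2.60, interval 1.74 to 3.89), Iars 38 and 30 (2.58, interval 1.55 to 4.31) and Yars 47 and 25 (3.82, interval 2.31 to 6.48), and all were kept. Mars had 53 and 56 reads (1.92) and was removed, although its site holds the same 8 letters shown above. Of genes of amino acid supply, Slc38a2, a neutral amino acid transporter, had 39 and 25 reads in a kept peak 43.7 kb upstream (3.17, interval 1.87 to 5.47). Pycr1, an enzyme of proline synthesis, had 50 and 57 at its promoter (1.78, interval 1.20 to 2.66), and Slc7a5, a subunit of a large neutral amino acid transporter, had 53 and 57 in its first intron (1.89, interval 1.28 to 2.80), and both were removed. Pycr1 and Slc7a5 were both called for more WT reads by the exact binomial test, with Benjamini-Hochberg adjusted p of 0.00877 and 0.00300.

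The removed composite sites at the promoters of Ppp1r15b and Ddit3 had WT tags within the range of the kept composite sites, which reached 18.9. They had more KO tags than any of these kept sites, which reached 6.88. The KOIN filter required 2-fold on these same tags, so this order of KO tags is a description. Ppp1r15b, a regulatory subunit of the phosphatase of eIF2α, had 64 WT reads (17.2 tags) and 78 KO reads (10.3 tags) at its promoter, a WT/KO of 1.67 (1.18 to 2.35). Ddit3, which encodes CHOP, had 54 and 74 reads, or 14.5 and 9.80 tags, a WT/KO of 1.48 (1.03 to 2.14). By the exact binomial test with Benjamini-Hochberg adjustment Ppp1r15b was called (adjusted p 0.00742) and Ddit3 was not (adjusted p 0.0526), and neither was called with KO scaled on repeats, where their WT/KO was 1.03 and 0.912. The 13 standard promoter peaks with the composite had a median WT/KO of 1.78, from 1.46 to 5.34, with 6 kept and 11 called. The letters stood at 6 of the 43 KOIN-corrected promoter peaks (14.0%, 6.56 to 27.3) and at 7 of the 45 removed ones (15.6%, 7.75 to 28.8), while AP-1 letters stood at 10 (23.3%, 13.2 to 37.7) and 2 (4.44%, 1.23 to 14.8).

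**Figure D2:**
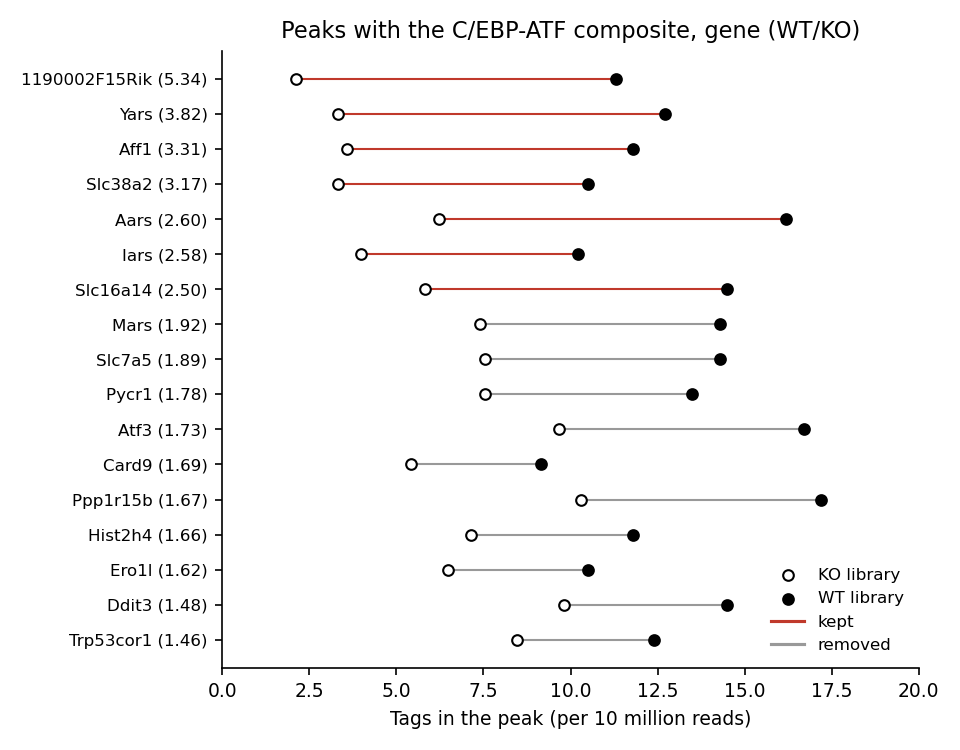
Tags, scaled to the common library, in the KO library (open) and the WT library (filled) at 17 standard peaks with the letters TGATGCAA, all those at promoters or 5′ untranslated regions and those of Slc38a2, Slc7a5 and Ero1l, with WT/KO beside the gene and line colour for kept or removed. Every peak had more WT tags. KO tags were 2.12 to 6.22 at kept and 5.43 to 10.3 at removed peaks, a description because the filter used these same tags.

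Across all standard peaks the AP-1 letters were more frequent at higher WT/KO. They stood within 100 bp of the centre, on either strand, at 2 of 307 peaks with WT/KO below 1 (0.651%), 5.01% at 1.25 to 1.5, 8.40% at 1.75 to 2, 15.6% at 2 to 2.5, 25.9% at 3 to 4 and 33 of 105 peaks (31.4%, 23.3 to 40.8) at 4 or more. Windows of the same length moved by 1000 bp held them in 1.63% to 4.62% over the same bins. Kept peaks had them at 147 of 574 (25.6%, 22.2 to 29.3; shifted windows 3.66%) and removed peaks at 113 of 2205 (5.12%, 4.28 to 6.13; shifted windows 2.97%). The intervals did not overlap, and the sequence had no part in the filter. Removed peaks of 2-fold or more were between, at 33 of 295 (11.2%, 8.08 to 15.3).

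The composite letters stood at 4.88% of kept peaks (shifted windows 0.523%) and at 1.59% of removed peaks (0.726%). The letters GAGGAAGT, of the type bound by PU.1, a factor of the macrophage lineage, stood at 5.57% of kept and 1.77% of removed peaks, with 1.13% and 1.22% in shifted windows. CRE letters were rare, at 5 kept and 2 removed peaks. TGAGTCAGC, the MAF and NRF2 type, which contains the AP-1 letters, was at 11 and 9 peaks, and TCACGTGA, the MITF and TFE type, at 1 and 2. A match describes the letters only, and no match says nothing about a factor. On satellites, simple repeats, low-complexity sequence and rRNA elements, AP-1 letters stood at 7 of 910 peaks, which were 12.2% kept against 24.8% of the other 1869. Off those elements the AP-1 shares were 31.3% of kept and 7.68% of removed peaks.

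**Figure D3:**
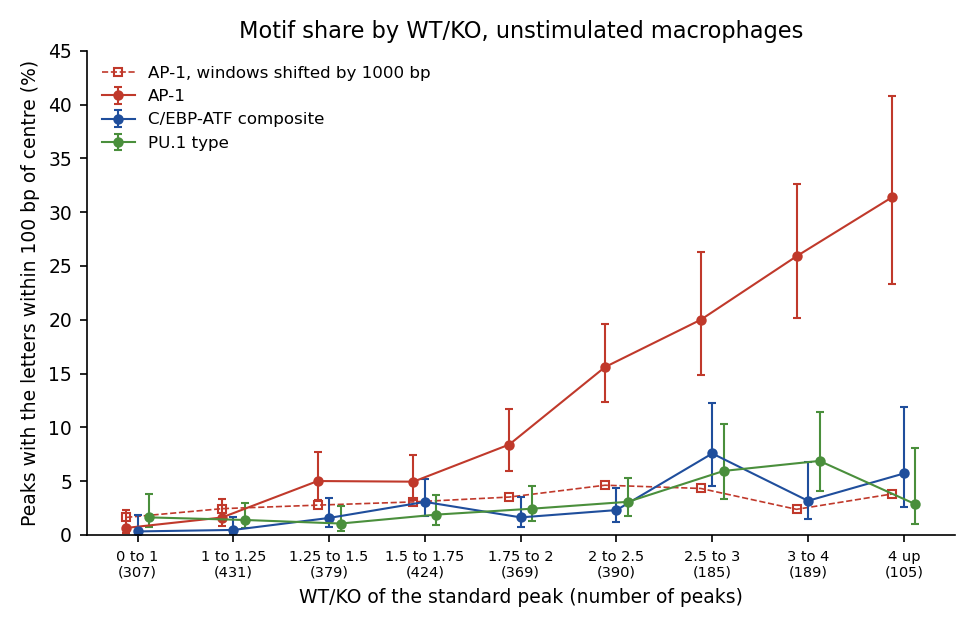
Share of standard peaks with each set of letters within 100 bp of the centre (vertical, percent, bars are Wilson 95% intervals) by WT/KO of the peak (horizontal, with the number of peaks per bin), and the AP-1 share in windows shifted by 1000 bp (dashed). The AP-1 share goes from 0.651% below 1 to 31.4% at 4 or more, while shifted windows stay between 1.63% and 4.62%.

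The Atf3 gene itself had 3 standard peaks on chromosome 1. The promoter peak (193006785 to 193007665) held 62 WT reads (16.7 tags) and 73 KO reads (9.66 tags), a WT/KO of 1.73 (1.21 to 2.46). It was removed, though called by the exact binomial test (Benjamini-Hochberg adjusted p 0.00465), and its WT/KO was 1.06 with KO scaled on repeats. Peaks 18024 bp and 47585 bp upstream held 39 and 37 reads (2.14) and 49 and 49 reads (2.03), and both were kept. Reads at this promoter in KO chromatin do not check the deletion, which the peak lists do not show. Farther along, Nenf, a secreted neurotrophic factor gene, had 54 and 14 reads in a peak of the KOIN-corrected list alone (7.85, interval 4.3 to 15.3), with AP-1 letters, and Ppp2r5a, a phosphatase subunit, 45 and 23 at its promoter (3.98). Rps6kc1 on the other side had 44 and 79 reads (1.13). So within 300 kb the sites ranged from nearly equal density in both genotypes to 7.85-fold more in WT.

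Cd36, the scavenger receptor of foam cells, had a peak of each kind. The peak in its first intron, with AP-1 letters, held 37 WT and 26 KO reads (2.89, interval 1.71 to 4.98) and was kept. A peak 9.02 kb upstream on a simple repeat held 38 and 66 reads (1.17, interval 0.764 to 1.77) and was removed. WT reads were thus nearly equal at both, and the KO reads differed. Cdk8, a kinase of the mediator complex, held 287 and 530 reads on an rRNA element in an intron (1.10, interval 0.951 to 1.27), which turned to 0.677 with KO scaled on repeats.

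The peaks with the most reads were nearly equal in both libraries. The 4 largest, all on the major satellite GSAT_MM, took 2040167 WT reads, 84.6% of WT reads in standard peaks. They were 5.49% of the whole WT library and 4.97% of the KO library. These were 2 peaks assigned to Lrrc4c, more than a megabase from its start site (WT/KO 1.11 and 1.08), and those assigned to 1700012B15Rik (1.12) and 4933422A05Rik (1.11). With KO scaled on repeats the 4 turned to between 0.662 and 0.686. Fam172a (1.13) was also on GSAT_MM. Off the repeat classes named above, the ribosomal RNA precursor gene Rn45s held 10922 WT and 17164 KO reads (1.29, interval 1.26 to 1.33), which turned to 0.795.

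Peaks near Ly6c2 (1.03), Cdk5rap2 (1.20), 3110007F17Rik (0.965), Col19a1 (0.992), Gm16501 (0.946) and B020014A21Rik (1.20) each held over 1000 WT reads, and with KO scaled on repeats all were below 1. The peak 18.8 kb upstream of Chst2, a sulfotransferase gene, stood out among them. It held 2298 WT and 2610 KO reads (1.79, interval 1.69 to 1.89) and was removed. The MACS scores of these removed peaks reached 2745.37, at Ly6c2, against 274.57 at the G530011O06Rik promoter, the highest of the KOIN-corrected sites off such repeats. The scores come from separate peak callings, the first on WT alone and the other with KO as control, so they are not a like comparison.

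Repeat classes differed from each other in WT/KO. Peaks with no repeat at their centre (1096) had a median of 1.92, and 380 (34.7%) were kept. The 26 satellite peaks had a median of 1.11 and the 67 peaks on IAPEy-int, an endogenous retrovirus of the intracisternal A-particle family, 1.04, and none of either was kept. Of 82 peaks on telomere-type TTAGGG or CCCTAA repeats, 78 were called for more WT reads and only 5 were kept. Their WT/KO had a narrow range (median 1.75, quartiles 1.64 and 1.85). These peaks were deep, with a median of 440 WT reads against 43.0 over all standard peaks. The part of depth in the share called and in the narrow range was not tested. CAGA or TCTG repeats (67 peaks) had a median of 1.82, with 51 called for more WT reads and 8 kept. GA or TC repeats (347 peaks) had a median of 1.46 and CA or TG repeats (154 peaks) 1.80, with 25 and 41 kept. The medians were 1.65 on SINEs (135 peaks), 1.36 on LINEs (294), 1.26 on LTRs (325) and 1.48 on rRNA elements (59). With KO scaled on repeats, 10 telomere-type peaks and no satellite or IAPEy-int peak were called for more WT reads.

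**Figure D4:**
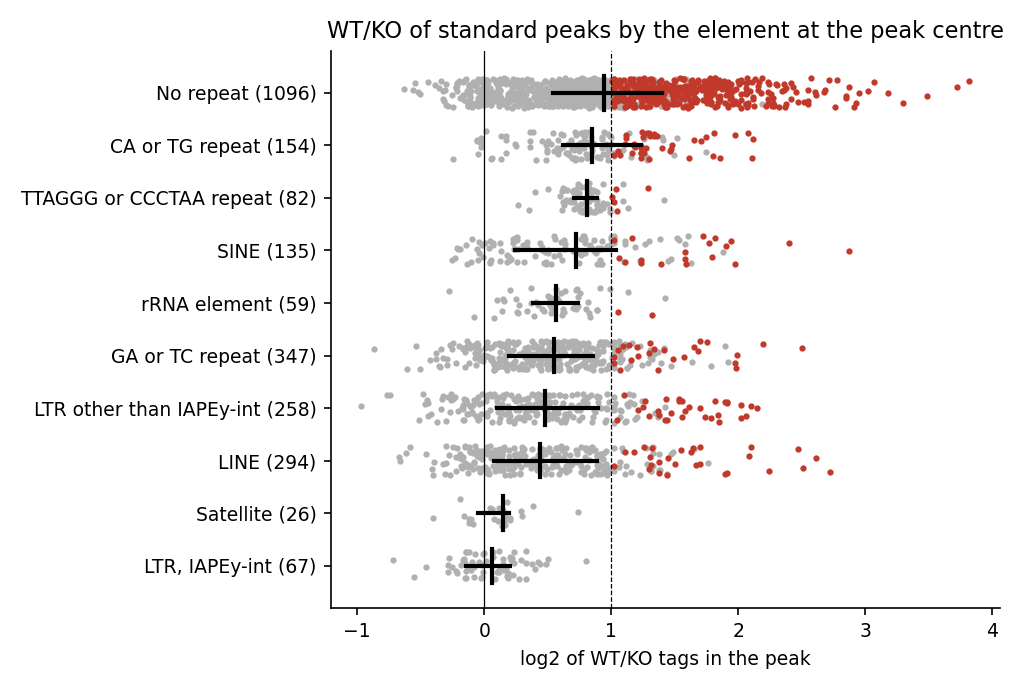
log2 of WT/KO tags (horizontal) of standard peaks by the annotated element at the peak centre (number of peaks in brackets), with the median and quartiles in black, kept peaks in red and removed peaks in grey. Medians go from a WT/KO of 1.92 off repeats to 1.04 on IAPEy-int, where no peak was kept, and telomere-type repeats form a narrow band at 1.75.

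The 25 peaks called for more KO reads had WT/KO from 0.512 to 0.943, with a median of 0.696, and none held AP-1 letters (0 of 25, which allows a share of up to 13.3% by the Wilson interval). Of these, 22 were intergenic, 9 were on LTRs (6 of them IAPEy-int), 4 on LINEs, 3 on satellites, 2 on simple repeats and 6 off repeats. The 6 of lowest p were near Chl1 (43859 WT and 97065 KO reads, 0.919), Pak3 (11210 and 24176, 0.943), Armc4 (1413 and 3337, 0.861), H2-M10.4 (513 and 1285, 0.812), Vmn1r77, a vomeronasal receptor (142 and 415, 0.696), and Klk1b24, a kallikrein gene (37 and 147, 0.512). The 4 with the most reads thus lay between 0.812 and 0.943, nearer to 1 than the other 2.

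Chromosome X stood apart from the autosomes. Its 178 standard peaks had a median WT/KO of 1.09, with 33 called for more WT reads, 5 for more KO reads and 4 kept (2.25%, 0.877 to 5.63), against a median of 1.70 and 569 of 2574 kept on the autosomes. The 27 peaks on Y had a median of 1.20 and 1 was kept. X peaks were also deeper, with a median of 85.0 WT reads against 42.0 on autosomes, and the part of depth in this difference was not tested. Autosomes alone gave 59.7% of peaks called for more WT reads.

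The 2-fold boundary fell among peaks that counting error cannot separate. Just above it and removed were Mkl2 (62 WT and 63 KO reads), Hmgxb4 (403 and 409) and Ier5 (219 and 222), and just below it Selk (55 and 56), Tuba1b (57 and 58) and Dennd2c (58 and 59). All 6 had a WT/KO that rounds to 2.00 or 2.01. Of the 869 peaks at 2-fold or more, 295 were removed and 292 of those were called for more WT reads.

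The gene lists were read against all 2216 genes named at a standard peak, of which 1415 (63.9%) had a peak called for more WT reads and 548 (24.7%) had a kept peak. A gene here is the nearest start site, which may lie far from the peak. The cell cycle and p53 pathway list had 7 of 12 genes kept, with 11 called and a median WT/KO of 1.98. Within 100 kb it had 5 of 10 kept, as many as the bZIP list. The Toll-like receptor and NF-κB list (3 of 6) and the lipid list (2 of 4) had the same share. Over all the lists 27 of 110 genes (24.5%) were kept at that distance, and the share over all genes there was not computed. Mdm4 and Mdm2, the inhibitors of p53, had 58 WT and 29 KO reads 8.59 kb upstream (4.07, interval 2.56 to 6.59) and 64 and 33 reads 10.8 kb upstream (3.94, interval 2.55 to 6.20). Gadd45a, a growth arrest gene, had 35 and 13 (5.48), Cdkn2b, an inhibitor of cyclin kinases, 43 and 21 (4.16), and Btg1, an antiproliferative gene, 29 and 29 at its promoter (2.03). These 5 were chosen after their values were seen. Ccng2 had the most WT reads of the list, 698 against 770 KO reads (1.84), and was removed. Cdkn2a, with 74 and 78 reads 65.1 kb from its start site (1.93), was removed too, and the Ccng1 peak with the most reads (146 and 190, 1.56, removed) turned to 0.961 with KO scaled on repeats.

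Of the bZIP factors, 10 of 11 genes with a standard peak were called and 5 were kept, with a median of 1.79. Creb5 and Atf3 are given above. Creb3l1, with 310 and 393 reads on a telomere-type repeat, stood at 1.60 and turned to 0.986 with KO scaled on repeats. Jun had 50 and 56 reads at its promoter (1.82) and was removed. Fosb had 38 and 50 reads at its promoter (1.55, removed) and 30 and 27 at 6.49 kb upstream (2.26, kept). Nfe2l2, which encodes NRF2, had 41 and 30 reads 58.7 kb upstream (2.78, kept). The last 3 genes were chosen after their values were seen.

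Cytokines and chemokines had 8 of 10 genes called and 3 kept, with a median of 1.85. Beside Ifnb1, the kept ones were Ccl2, with 54 and 46 reads 28.4 kb upstream (2.39), and Ccl3, with 38 and 31 at its promoter (2.49; chosen after its value was seen). The Cxcl1 peak (46 and 39 reads, 2.40) was past 2-fold and removed. Vegfa had the most WT reads of this list, 149 against 166 on a simple repeat (1.83). Toll-like receptor and NF-κB genes had 5 of 8 called and 3 kept, with a median of 2.37. Nfkbiz, an atypical IκB that is needed for Il6 transcription, had 70 and 52 reads 67.5 kb from its start site (2.74, interval 1.89 to 4.00), with AP-1 and composite letters. Tlr2 had 38 and 24 (3.22, kept), Socs1 40 and 30 (2.71, removed) and Tlr3 38 and 48 (1.61, removed).

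Lipid and cholesterol handling had 4 of 4 genes called and 2 kept, with a median of 2.02. Abca1, the cholesterol exporter, had 54 and 36 reads 21.8 kb upstream (3.05, interval 1.96 to 4.79) and 37 and 35 in an intron (2.15), both kept. Mylip, a ubiquitin ligase for the LDL receptor, (1.90) and Ch25h, cholesterol 25-hydroxylase, (1.89) were removed. Oxidative stress genes had 5 of 5 called and 2 kept, with a median of 2.28. Gclm, of glutathione synthesis, had 27 and 13 reads (4.22, kept; chosen after its value was seen), Trib3 46 and 41 (2.28), Cat, catalase, 44 and 52 (1.72) and Fth1, ferritin heavy chain, 33 and 32 (2.10).

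The list of endoplasmic reticulum and integrated stress genes had 5 of 9 called, 2 at 2-fold or more and 0 kept, with a median of 1.64. Herpud1, of protein degradation at the endoplasmic reticulum, had 55 WT and 51 KO reads at its promoter (2.19, interval 1.47 to 3.28) and was removed, as were Ppp1r15b, Ddit3 and Slc7a5. All 4 had over 50 WT reads. The BCL2 family had 3 of 3 called, 3 with a peak at 2-fold or more and 0 kept, with a median of 2.15. Among these Mcl1 had 38 and 21 reads (3.68, interval 2.11 to 6.60) and Bcl2 had 38 and 41 (1.89). Another Bcl2 peak, in the 3′ untranslated region and outside the naming rule, had 36 and 34 reads (2.15) and was removed. Bmf, an apoptosis activator, had a peak of the KOIN-corrected list alone, with 39 and 26 reads (3.05).

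Macrophage identity and receptor genes had 8 of 12 called and 3 kept, with a median of 1.60. Itgam, the CD11b integrin chain, had 26 and 8 reads (6.61, interval 2.91 to 16.9) and Cx3cr1, the fractalkine receptor, 37 and 14 (5.38, interval 2.84 to 10.8). Clec4d, a C-type lectin, had 50 and 41 (2.48). Csf1r, the M-CSF receptor, had 43 and 29 (3.02) and Cd68 47 and 42 at its promoter (2.28), and both were removed. These were chosen after their values were seen, apart from Clec4d. The list members with the most WT reads were Fcgr3 (97 and 168, 1.17), Csf2ra (96 and 161, 1.21) and Ccr2 (92 and 193, 0.970), all removed. Fcgr3 turned to 0.722 and Csf2ra to 0.745 with KO scaled on repeats.

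Genes of other cell types were counted in the same way. Of 25 neuronal genes 13 were called and 1 was kept, Cdh8 at 1262 kb, and only 2 had a peak within 100 kb, Pcdh9 (1.25) and Cdh8 (1.68), neither called. Muscle genes had 1 of 4 called and 0 kept, with a median of 1.17 (Myl3 2.01, Casq2 1.30, Sgcz 1.03 and Myh2 0.840). Lymphocyte genes had 2 of 2 called and 0 kept, with a median of 1.41 (Blk, 2.01, on a simple repeat). Olfactory and vomeronasal receptors had 92 peaks at 42 genes with a median of 1.07, 16 genes called for more WT reads, 2 for more KO reads and 4 kept. The receptors with the most WT reads were Vmn2r121 (0.928), Vmn1r2 on a satellite (1.22, 0.750 with KO scaled on repeats), Olfr806 (1.71) and Olfr201 on IAPEy-int (0.919).

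Unstimulated sites were then followed in cells given HDL (2 mg/ml for 6 h) and HDL followed by CpG, a Toll-like receptor ligand (100 nM for 4 h). Of the 595 KOIN-corrected peaks, 239 (40.2%, 36.3 to 44.2) overlapped a KOIN-corrected peak of HDL, which was 7.85% of that list of 3044. With HDL and CpG 118 did (19.8%, 16.8 to 23.2), and the reverse share of that list of 1232 was 9.66%. The KOIN-corrected lists of both conditions held 75 (12.6%) and those of neither held 313 (52.6%, 48.6 to 56.6). More of the 595 overlapped a standard peak, 336 (56.5%) with HDL and 245 (41.2%) with HDL and CpG. A site outside the KOIN-corrected lists thus need not lack a WT peak in treated cells. The KO/WT depth also differed between the conditions, at 2.03 unstimulated, 1.74 with HDL and 0.960 with HDL and CpG, and its part in the overlaps was not tested.

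Removed sites overlapped KOIN-corrected peaks of HDL less often than kept sites did. Of the 2205 removed peaks, 721 (32.7%, 30.8 to 34.7) did so, against 39.9% (36.0 to 44.0) of kept peaks. The share of all standard peaks, most of which are removed peaks, was 34.2%. With HDL and CpG 102 removed peaks (4.63%) overlapped, against 7.70% of all standard peaks and 19.5% of kept peaks. At the 721, the median WT/KO was 1.66 unstimulated and 2.81 with HDL. These peaks were chosen by failing the filter unstimulated and passing it with HDL, which sets that direction, so the values are a description. Median WT tags went from 12.4 to 16.6 and median KO tags from 7.94 to 6.05. The median WT/KO of the whole standard list also differed between the conditions, at 1.66 unstimulated, 2.41 with HDL and 1.42 with HDL and CpG, so a shift of all peaks and a change at these sites cannot be told apart with 1 library each. Ppp1r15b is such a site, at 1.67 unstimulated, 2.74 with HDL and 2.93 with HDL and CpG, as is Slc7a5, at 1.89, 2.80 and 2.67. At Ddit3 the ratio was 1.48, 1.42 and 3.89, with 81 WT and 20 KO reads in the last.

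Among the sites of highest score, the G530011O06Rik promoter had a high ratio in each condition, at 7.32 unstimulated, 11.5 with HDL and 7.60 with HDL and CpG. Ifnb1 stood at 9.08, 3.98 and 5.56, and Fgd3 at 3.43, 4.35 and 5.50. The intervals of each gene overlapped between conditions. The intronic Cd36 peak stood at 2.89, 3.04 and 3.65 and the Abca1 peak upstream at 3.05, 3.64 and 4.80, and both were in the KOIN-corrected list of each condition. Rpp38 and Clec4d had a peak in unstimulated cells alone among the 3 conditions.

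**Figure D5:**
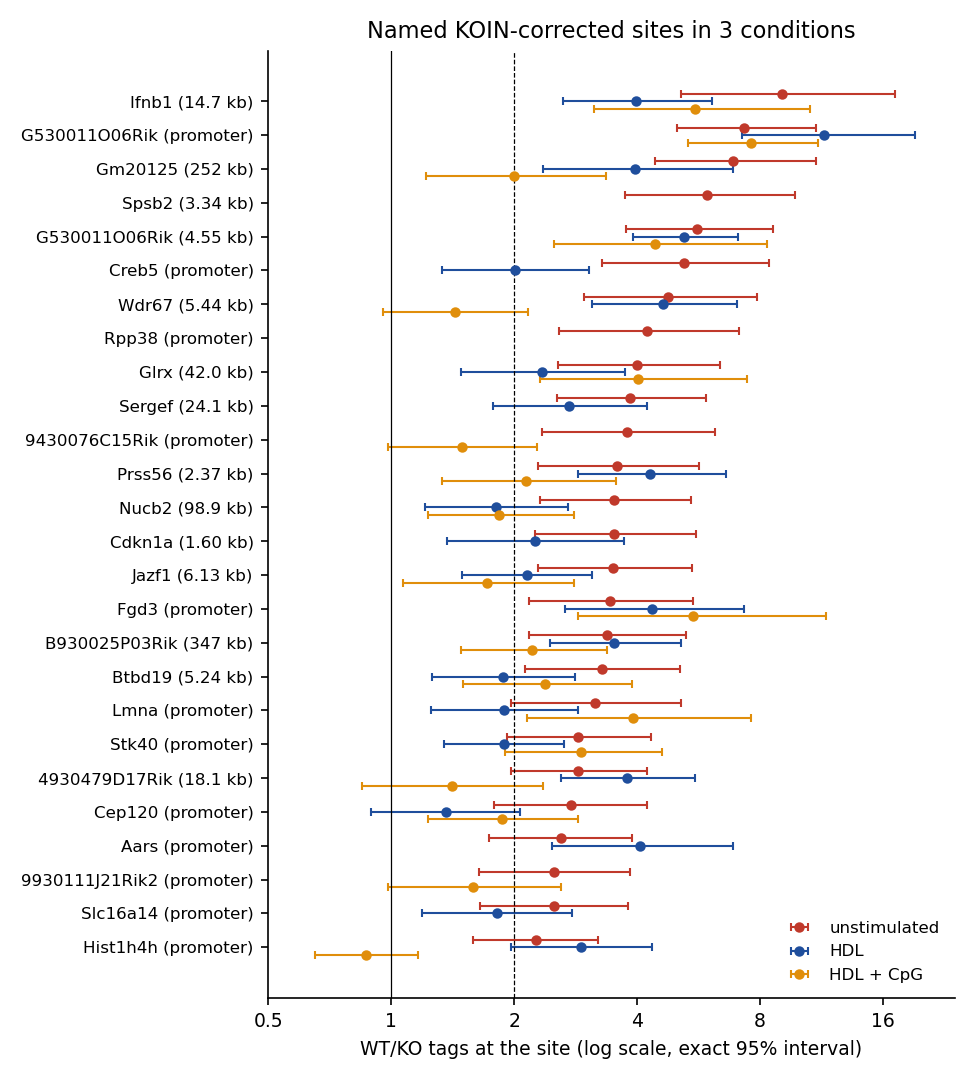
WT/KO tags on a log axis with exact 95% intervals at 26 named KOIN-corrected sites of unstimulated macrophages (red) and at the same sites with HDL (blue) and HDL followed by CpG (orange), where a peak was listed. The unstimulated points all lie above the dashed line of 2, as the KOIN filter required, and with HDL and CpG Hist1h4h lies at 0.868 and Wdr67 at 1.43.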

How the data were processed

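ATF3 ChIP-seq was done in 1 WT and 1 KO sample per condition, each pooled by the authors from 3 biological replicates, and the labels put each sample in its group. The deposited lists hold one row per peak. The tag values, a signal, are reads in the peak scaled by the authors to a library of 10000000 reads, and the peak score is the score given by the authors' peak caller. The submitters' processing notes name CASAVA 1.8, Bowtie 0.12.8, MACS 1.4.2, HOMER 4.3 and mm9, while the study's methods name an earlier MACS release. Reads per peak were computed as tags times the library total in the deposited column header, and came out whole within 0.005 tags at every peak used. The authors' fold column (WT over KO) and 1 deposited barcode list were not used.

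WT and KO reads per standard peak were compared by a two-sided exact binomial test with the share set by the library totals, with Benjamini-Hochberg adjustment over the list and a threshold of 0.05. A check on simulated reads held counting error only, without the choice of peaks on the WT library or spread between replicates. Intervals of WT/KO are exact 95% intervals and those of shares are Wilson 95% intervals. Both cover counting error only, since reads are not independent molecules. Kept standard peaks share at least 1 bp with a peak of the KOIN-corrected list. Letters were searched on both strands in 100 bp each side of the peak centre, and in windows of that length shifted by 1000 bp to each side, in the reference genome NCBIM37. All 2779 standard and 595 KOIN-corrected peaks lie inside its chromosomes, and 78 of 82 promoter peaks (95.1%) whose gene is annotated there have a start site within 100 bp of the place the lists give.

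Named peaks were the 15 KOIN-corrected peaks of highest score and the 8 removed peaks with the most WT reads, both off satellites, simple repeats, low-complexity and rRNA elements; the 6 removed peaks with the most WT reads on them; the 6 called peaks of lowest p with more KO reads; the 12 KOIN-corrected promoter peaks with the most WT reads; the 5 KOIN-corrected peaks of highest score with no standard counterpart (those at G530011O06Rik, and Gm5122 with 47 WT and 37 KO reads, 2.58); the peaks of Atf3, Cd36 and Cdk8; up to 4 genes of each of 13 gene lists, by WT reads within 100 kb; and the 3 removed peaks nearest to 2-fold on each side. The peaks, the gene lists and these rules were chosen with earlier results of these data known. Alternatives were another pseudocount, score minimums, peaks off satellites, simple repeats, low-complexity and rRNA elements, and autosomes. Further ones were KO scaled on repeats, merged peaks, other overlaps, windows and gene distances. Computations used Python 3.11.15, numpy 2.4.6, pandas 2.3.3, scipy 1.17.1 and matplotlib 3.10.9.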

Additional observations from a re-analysis of the deposited data

Results flagged for a closer look

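WT/KO was compared between unstimulated cells and each other condition at 34 named KOIN-corrected and locus peaks by an exact conditional test of the 4 read counts, which compares 4 pooled libraries and not replicated conditions. Of 58 such tests 5 passed a Benjamini-Hochberg adjusted p under 0.05 (11 had an unadjusted p under 0.05), each with the higher ratio in unstimulated cells. Most sites had been chosen from the unstimulated KOIN-corrected list, which required 2-fold on these same unstimulated reads. That choice favours a higher unstimulated ratio and the p-values do not allow for it, so the direction is a description. Wdr67 stood at 4.77 unstimulated and 1.43 with HDL and CpG (exact test, adjusted p 0.00220), Gm20125 at 6.86 and 2.00 (exact test, adjusted p 0.00576), Hist1h4h at 2.26 and 0.868 (exact test, adjusted p 0.00136) and 9430076C15Rik at 3.78 and 1.49 (exact test, adjusted p 0.0354). Creb5 stood at 5.20 unstimulated and 2.01 with HDL (exact test, adjusted p 0.0270). The median WT/KO of the whole standard list was 1.66 unstimulated, 2.41 with HDL and 1.42 with HDL and CpG, so that the 4 sites that were lower with HDL and CpG moved the same way as the list, and Creb5 the other way.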

How the results depend on the processing

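With 1 pooled library per genotype, no replicate could be left out. No paired analysis was possible because the pooled libraries carry no replicate numbers. The share of standard peaks called for more WT reads went from 56.2% to 60.2% at scores of at least 100, 59.7% on autosomes and 11.0% with KO scaled on repeats, and that called for more KO reads from 0.900% to 1.50% at scores of at least 60, 1.75% at 100 and 15.5% with KO scaled on repeats. The share at 2-fold or more, 31.3%, became 24.1% with a pseudocount of 1 tag and 21.4% and 12.1% at scores of at least 60 and 100. It was 33.0% on autosomes and 8.42% with KO scaled on repeats. Off satellites, simple repeats, low-complexity and rRNA elements, with SINE, LINE and LTR peaks still included, it was 35.7%. The median of 1.66 became 1.51 at scores of at least 100 and 1.02 with KO scaled on repeats. The share kept, 20.7%, became 15.9% and 9.08% at scores of at least 60 and 100 and 24.8% off those elements. In introns it was 34.7% off those elements and 19.5% at scores of at least 60, and in intergenic sequence 18.3% and 13.2%. AP-1 letters in a window of 50 bp stood at 15.2% of kept and 3.36% of removed peaks, and off those elements at 31.3% and 7.68%. Composite letters stood at 2.26% of kept and 0.771% of removed peaks in 50 bp, and at 2.42% of removed peaks off those elements. Of genes on the lists, 20.4% were kept, and 27.8% with peaks within 10 kb only.

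With KO scaled on repeats, 21 of 101 named sites crossed 1: Rn45s (0.795), Ly6c2 (0.632), Cdk5rap2 (0.737), B020014A21Rik (0.736), Lrrc4c (0.684 and 0.662), 1700012B15Rik (0.686), 4933422A05Rik (0.683), Fam172a (0.695), Cdk8 (0.677), Creb3l1 (0.986), Fcgr3 (0.722), Ccng1 (0.961), Vmn1r2 (0.750) and, not called on either scale, Cd36 upstream (0.720), Ddit3 (0.912), Tlr3 (0.990), Csf2ra (0.745), Pcdh9 (0.771), Sgcz (0.633) and Casq2 (0.801). Another 32 were no longer called, 6 became called and 42 were unchanged in direction and call. That scaling divides every ratio by 1.63, by construction. A pseudocount of 1 tag changed none of the 101. Merging peaks within 1000 bp, an overlap of at least 50% and promoters set by distance changed no share beyond its interval. Peaks with few reads limit what can be called, as the smallest WT/KO called was 1.64 under 40 WT reads.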
